A study of Eptatretus atami with 13 samples.

Results

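UNC80 is a very large protein of the sodium leak channel complex. In mammals the pore of this channel is formed by NALCN, which carries a small background sodium current into neurons at rest, and UNC80 and UNC79 are auxiliary subunits that hold the complex together and are needed for its current. In the annotation of the hagfish *Eptatretus atami*, a jawless vertebrate, 4 gene models are named UNC80-1 to UNC80-4. They were chosen by their identifiers (EA21893, EA22683, EA23777 and EA23793), and they are 4 of the 37562 gene models counted. The question asked of them was whether 4 neighbouring models with a single name behave as a single gene over the organs.

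RNA was extracted with Trizol from 13 organs of wild-type *E. atami* and sequenced as strand-specific libraries, with 1 library per organ. These were brain and heart, the skeletal muscle of the tongue, skin, slime gland and gills, the intestine with liver and gall bladder, kidney, ovary, blood cells, and a sample labelled adipose tissue. For every library the labels give the genotype as WT, the cell type as whole organism and the treatment as normal embryonic development, and they give no age or number of animals. With a single library per organ no difference between organs could be tested, and every interval below is a 95% interval of counting error only.

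Between 18800367 and 39077785 counts were assigned to gene models per library (median 26465723), and the 10 most abundant models took from 3.96% to 67.8% of them. The library labelled adipose tissue resembled brain. Its profile over 19057 models followed that of brain with a Pearson correlation of 0.96, against 0.74 between brain and heart, the level of the neurofilament gene *NEFM* was 931 FPKM in it and 899 FPKM in brain, and *ADIPOQ-1*, the adiponectin gene of fat cells, was at 0.337 FPKM. Over all 4 adipocyte models its summed level was 99.1 FPKM, within the range of 6.44 to 1262 FPKM over the 13 libraries. The 4 models were mixed. *ADIPOQ-1* was lower in brain, at 0.0720 FPKM, and highest in gills, at 3.43 FPKM. *ADRB3* was highest in the library labelled adipose tissue, at 1.22 FPKM against 1.12 FPKM in brain. *CAVIN1-2*, at 35.5 FPKM there, and *GPD1*, at 62.1 FPKM, were highest in tongue muscle, at 318 FPKM and 944 FPKM. The brain-like library is called the library labelled adipose tissue throughout. Several results are given with and without it. Others, such as the likeness search and the correlations of neighbouring pairs, are given only with it. Heart carried some muscle markers, with 7 of 9 striated muscle models at least 2-fold higher in heart than in brain, against 9.75% of all models. The 7 were models of *NEB*, *NEBL* and *TTN*, while *MYL2-1* (1.35 FPKM in heart, 2.32 FPKM in brain) and *MUSK* were higher in brain. Summed over the list, heart was at 1620 FPKM and brain at 11.6 FPKM. Gills, at 1602 FPKM, and slime gland, at 1473 FPKM, had sums near that of heart, and tongue muscle was at 28642 FPKM. These sums rest on different models. *MYL2-1* was at 1408 FPKM in gills and 28575.5 FPKM in tongue muscle. *NEB-4* was at 1160 FPKM in heart, 774 FPKM in slime gland, 113 FPKM in gills and 0.276 FPKM in tongue muscle.

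The 4 models lay in a row on the plus strand of scaffold ScMYAQb_1156 of the authors' assembly, on chromosome 1, over a stretch of 470138 bp that no other model overlapped on either strand. In the direction of transcription their order was UNC80-3, UNC80-4, UNC80-2 and UNC80-1. UNC80-3 ran from 9469140 to 9533609 and had 8 exons of 1044 bp in all. UNC80-4 ran from 9550113 to 9574398 and had 6 exons of 903 bp. UNC80-2 ran from 9612222 to 9692088 and had 16 exons of 2355 bp, and UNC80-1 ran from 9696597 to 9939277 and had 32 exons of 4737 bp. The order of the numbers therefore does not follow the order of the models, and the largest model, with 52.4% of the exon bases, stood last.

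The structures had several features in common. The source data assigned a single protein family to all 4 models, while the UNC80 domain was listed for UNC80-3 alone. Every exon length sum was a multiple of 3, as for 81.4% of all models, and together the 4 models would hold 3013 codons in 62 exons. The gaps between them were 16503 bp after UNC80-3, 37823 bp after UNC80-4 and 4508 bp after UNC80-2. Of the 58 introns inside the 4 models 26 were longer than the shortest gap. Only 1 intron, of 38493 bp in UNC80-1, was longer than the longest gap, which was thus long for an intron of the locus. The gaps were not unusual for the genome, where the median gap between neighbouring models of a strand was 37652 bp.

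The last exon of each model was short. It measured 4 bp in UNC80-3, 41 bp in UNC80-4, 36 bp in UNC80-2 and 42 bp in UNC80-1. Over the 22082 models with several exons the median last exon was 235 bp, and 8.63% had a last exon of at most 42 bp.

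**Figure D1:**
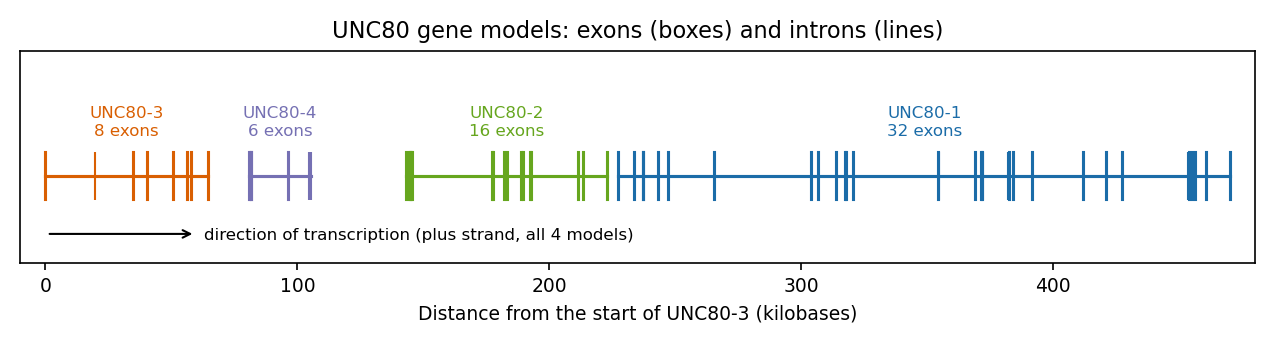
Exon map of the 4 UNC80 gene models, drawn to scale along the distance from the start of UNC80-3 in kilobases, with exons as boxes (widened to at least 0.35 kilobases so that they can be seen) and introns as lines. The 4 models follow each other without overlap, and UNC80-1, with 32 exons, is the last and the longest.

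UNC80-1 was the abundant model, and it was abundant in brain and heart. Its counts in brain, the library labelled adipose tissue and heart were 3834, 3413 and 2411. It had 285 counts in blood cells, 94 in slime gland, 90 in gall bladder, 78 in skin, 74 in intestine and 58 in ovary. The remaining organs had 41 in kidney, 37 in liver, 20 in gills and 10 in tongue muscle. No organ was without a count, and brain, heart and the library labelled adipose tissue stood apart from all others.

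Per length and depth, as FPKM (the count divided by the exon length in kilobases and by the assigned total in units of 1000000), the level of UNC80-1 was 38.9 (37.2 to 40.7) in brain, 32.4 (30.9 to 34.0) in the library labelled adipose tissue and 19.7 (18.6 to 20.9) in heart. In blood cells it was 2.38 FPKM (2.00 to 2.80), and heart stood 8.29-fold (6.97 to 9.93) above blood cells. From there the levels went from 0.718 FPKM in gall bladder down to 0.225 FPKM in gills and 0.0540 FPKM (0.0175 to 0.126) in tongue muscle. Of the 12 steps in this order 5 lay beyond counting error, which were the first 4, down to gall bladder, and the last, from gills to tongue muscle. From gall bladder through slime gland, skin, intestine, ovary, kidney and liver to gills each organ differed from the next by less than the counting error, although the ends of this run stood apart, at 0.524 to 0.961 FPKM in gall bladder and 0.108 to 0.413 FPKM in gills. Both the upper and the lower part of the order depended on the scaling of the libraries. With the TMM factors of edgeR the library labelled adipose tissue, at 19.9 FPKM, was close to heart, at 19.6 FPKM. With the same factors liver, at 0.796 FPKM, stood above gall bladder, at 0.520 FPKM. Tongue muscle, at 0.168 FPKM, then stood above gills, at 0.135 FPKM, so the last step reversed. The size factors of DESeq2 gave the same changes. Heart and tongue muscle are both striated muscle, yet UNC80-1 was 365-fold (156 to 1127) higher in heart. This fold rests on 10 counts in tongue muscle, where the 10 most abundant models took 48.9% of all counts. It was smaller with TMM factors, at 19.6 FPKM in heart and 0.168 FPKM in tongue muscle. UNC80-1 was above 90.8% of all models in brain and above 88.9% in heart.

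UNC80-2 had the same leading organs at a far lower level. Its counts were 67 in the library labelled adipose tissue, 45 in brain and 28 in heart. There were 6 each in blood cells and ovary, 3 in gall bladder, and 2 each in slime gland and skin. Gills, intestine, kidney, liver and tongue muscle had 0, and in gills, the shallowest of these libraries, the floor of 3 counts stood at 0.0678 FPKM and the upper end of the interval at 0.167 FPKM. The level was 1.28 FPKM (0.886 to 1.79) in the library labelled adipose tissue, 0.918 FPKM (0.582 to 1.38) in brain and 0.461 FPKM (0.252 to 0.773) in heart. The only step in this order beyond counting error was that from heart to blood cells, by 4.58-fold (1.28 to 24.8).

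UNC80-3, the first model of the row, had another order of organs. Its counts were 66 in heart, 44 in ovary, 26 in slime gland, 23 in brain, 17 in intestine and 16 in the library labelled adipose tissue. There were 6 in liver, 4 each in blood cells and gills, 2 each in gall bladder and skin, and 0 in kidney and tongue muscle. Heart was the highest library at 2.45 FPKM (1.69 to 3.44), ovary followed at 1.54 FPKM (0.963 to 2.33), and then brain at 1.06 FPKM (0.547 to 1.85). None of the 11 steps between neighbours in the order exceeded counting error. Heart was, however, 2.31-fold (1.16 to 4.92) above brain and 2.85-fold (1.46 to 5.89) above slime gland. The order below heart and the fold over slime gland depended on the scaling of the libraries. With the size factors of DESeq2 heart was at 2.44 FPKM and slime gland at 1.34 FPKM, a smaller fold, whose interval was not computed. Slime gland then stood above ovary, at 0.816 FPKM, and brain, at 0.665 FPKM. TMM factors gave the same order of these organs.

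UNC80-4 was the weakest model, with 55 counts over all libraries. Ovary had 24 of them and brain 12. There were 5 in the library labelled adipose tissue, 4 each in blood cells, heart and skin, 2 in gall bladder and 0 in the other 6 libraries. Its level was 0.969 FPKM (0.501 to 1.69) in ovary and 0.639 FPKM (0.234 to 1.39) in brain, and it did not reach 1 FPKM in any organ. No neighbouring organs in its order could be told apart.

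**Figure D2:**
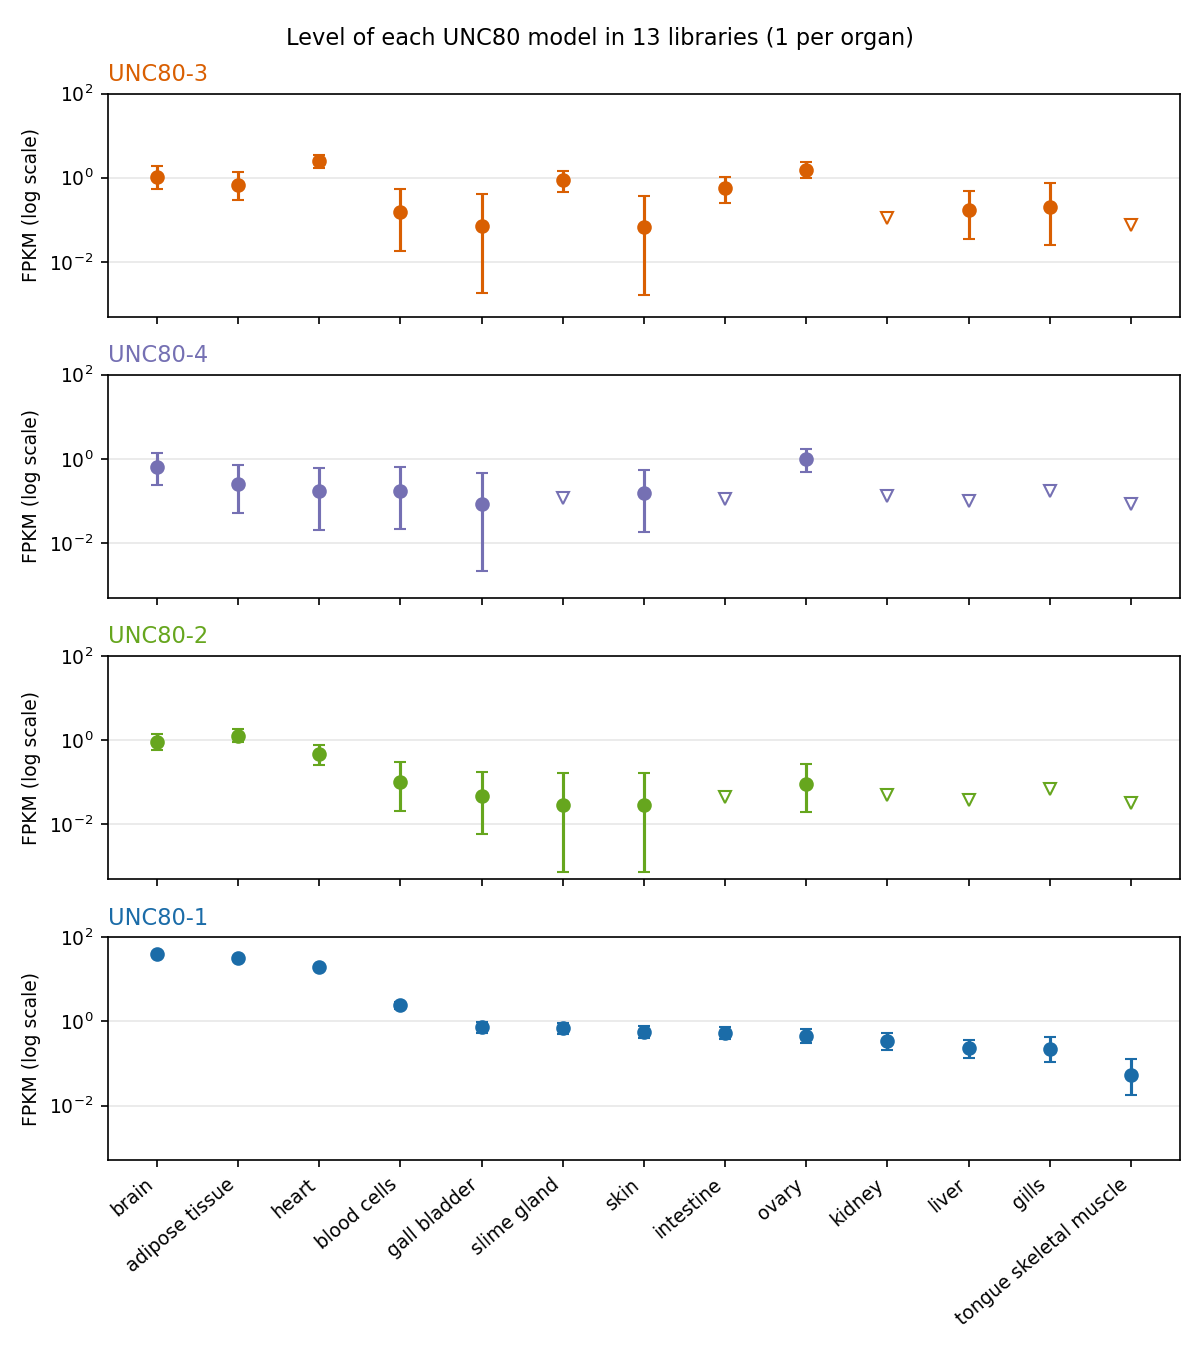
Level of each UNC80 model in FPKM (log axis) in the 13 libraries, ordered by the level of UNC80-1, with 1 library per organ and bars for 95% counting intervals. Open triangles mark libraries with 0 counts at the level that 3 counts would give; the library named adipose tissue is the one that resembled brain. UNC80-1 reaches 38.9 FPKM in brain and 19.7 FPKM in heart, whereas UNC80-3 has its highest value in heart and UNC80-4 in ovary.

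Organ specificity was summarised by tau, an index from 0 (equal in all organs) to 1 (a single organ), on the log2(FPKM + 1) scale and over the 9 organs of the study's methods. It was 0.90 for UNC80-2, 0.85 for UNC80-4, 0.83 for UNC80-1 and 0.75 for UNC80-3. Of the 18763 models with at least 1 FPKM in any of these organs, to which UNC80-1 and UNC80-3 belong, 19.4% reached 0.8. The highest of the 4 values belonged to UNC80-2, which exceeded 1 FPKM only in the library labelled adipose tissue, outside the 9 organs. Within the 9 organs its highest level was 0.918 FPKM, in brain. For UNC80-2 and UNC80-4, both near 1 FPKM at most, tau rests on low counts. The tau of UNC80-1 depended on the settings and fell below 0.8 in several. It was 0.69 with a pseudocount of 0.1 FPKM, 0.76 over all 13 organs and 0.797 with TMM factors. UNC80-2 stayed above 0.8 in each of these, at 0.86, 0.87 and 0.87.

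The first comparison was between brain and heart. Per model, the ratio of brain to heart was 1.97 (1.83 to 2.12) for UNC80-1 and 1.99 (0.983 to 4.19) for UNC80-2, nearly the same value. It was 3.72 (0.665 to 37.7) for UNC80-4, from 12 and 4 counts, and 0.432 (0.203 to 0.859) for UNC80-3. UNC80-3 was thus the only model higher in heart than in brain. With a pseudocount of 0.1 FPKM the log2 ratios were 0.98 for UNC80-1, 0.86 for UNC80-2, 1.44 for UNC80-4 and −1.14 for UNC80-3, and UNC80-4, whose interval included 1, was the only model at least 2-fold higher in brain, as were 42.4% of the 18092 models with at least 10 counts. UNC80-3 was the only model at least 2-fold higher in heart, as were 9.75% of all.

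The size of these ratios depended on the scaling of the libraries. The median log2 ratio of brain to heart over all models was 0.76, and with the TMM factors of edgeR it was 0.12, with 4913 models at least 2-fold higher in brain and 3130 in heart in place of 7664 and 1764. With these factors the ratio became 1.24 (1.15 to 1.33) for UNC80-1, 1.25 (0.618 to 2.63) for UNC80-2, 2.34 (0.418 to 23.7) for UNC80-4 and 0.272 (0.128 to 0.540) for UNC80-3.

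The ratio of 2 such ratios is free of the scaling and of exon length, since both models were counted in the same libraries. Brain to heart, UNC80-1 and UNC80-2 differed by a factor of 0.989 (0.458 to 1.97), so that a difference of up to about 2-fold either way could not be seen at the depth of UNC80-2. Against UNC80-3 the ratio of UNC80-1 was 4.56-fold (2.19 to 9.33) higher, that of UNC80-2 was 4.61-fold (1.61 to 12.9) higher and that of UNC80-4 was 8.61-fold (1.20 to 90.1) higher. UNC80-4 could not be told from UNC80-1, at a factor of 0.530 (0.0522 to 2.97) for UNC80-1 over UNC80-4. With the library labelled adipose tissue in place of brain, UNC80-2 was at least 2-fold higher there than in heart (44.4% of 18330 models were) and UNC80-3 at least 2-fold higher in heart (9.44% were). The factor between UNC80-1 and UNC80-3 was then 5.84 (2.63 to 14.7) and that between UNC80-1 and UNC80-2 was 0.592 (0.288 to 1.12). The interval between UNC80-4 and UNC80-3 then included 1, at 5.16 (0.574 to 81.4). These intervals were not adjusted for the 6 pairs compared.

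A comparison of brain with ovary was added after the levels had been seen. From brain to ovary UNC80-1 fell by a factor of 87.1 (60.5 to 130) and UNC80-2 by a factor of 9.89 (2.99 to 51.4). The brain to ovary ratio was 0.689 (0.311 to 1.45) for UNC80-3 and 0.659 (0.203 to 1.90) for UNC80-4, so neither was shown to differ between the organs. The brain to ovary ratio of UNC80-1 was 126-fold (51.1 to 292) that of UNC80-3, 132-fold (41.7 to 451) that of UNC80-4 and 8.81-fold (1.57 to 31.0) that of UNC80-2. UNC80-4 and UNC80-3 had a factor of 0.957 (0.223 to 3.53) between them. From brain to ovary UNC80-2 thus lay between the upstream pair, UNC80-3 and UNC80-4, and UNC80-1. From heart to ovary the upstream pair stood apart, with the ratio of UNC80-4 at 0.111 (0.0114 to 0.589) of that of UNC80-3. This comparison was not planned either, and it rests on 4 counts of UNC80-4 in heart and 24 in ovary.

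**Figure D3:**
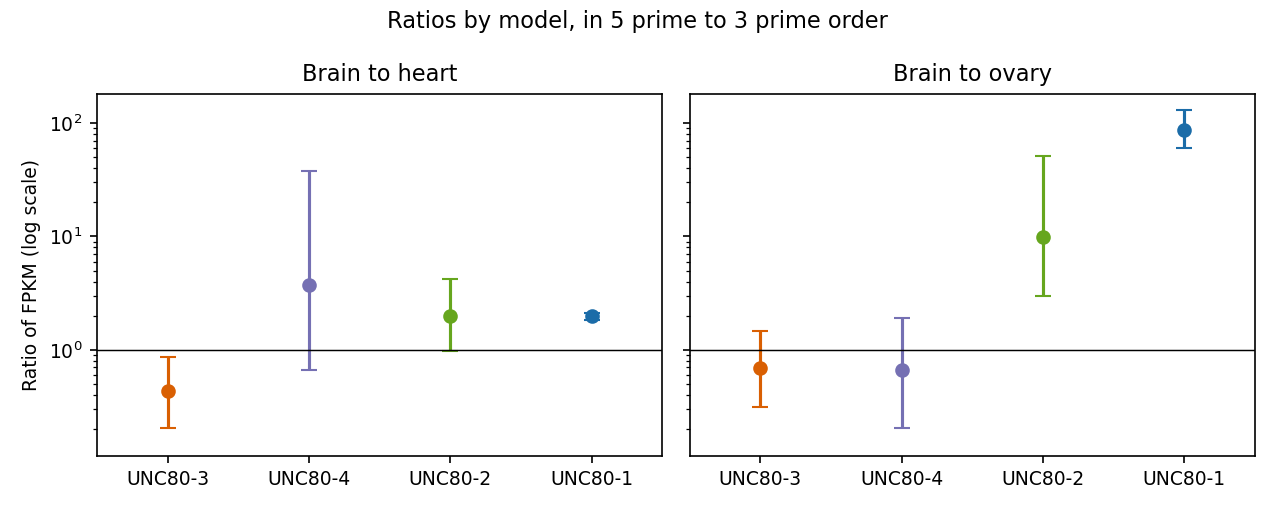
Ratio of FPKM (log axis) from brain to heart and from brain to ovary for the 4 UNC80 models in the order of transcription, each from 1 library per organ, with 95% counting intervals. From brain to heart UNC80-3 lies at 0.432, below 1, and UNC80-1 at 1.97; from brain to ovary the values go from 0.689 for UNC80-3 and 0.659 for UNC80-4 to 9.89 for UNC80-2 and 87.1 for UNC80-1.

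The shares of the models in the counts of the locus, do not depend on the scaling either. UNC80-1 held 98.0% (97.2 to 98.5) of the counts in brain, 97.5% (96.6 to 98.2) in the library labelled adipose tissue and 96.1% (94.9 to 97.1) in heart, and 43.9% (31.7 to 56.7) in ovary. UNC80-3 and UNC80-4 together held 0.894% (0.546 to 1.45) in brain, 2.79% (1.95 to 3.86) in heart and 51.5% (38.9 to 64.0) in ovary. UNC80-3 alone held 21.3% in slime gland and 18.7% in intestine, organs with 122 and 91 counts over the locus. Kidney and tongue muscle, with 41 and 10 counts over the locus, had counts in UNC80-1 only. The 95% interval for the other models together reached 16.1% in kidney and 52.2% in tongue muscle.

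**Figure D4:**
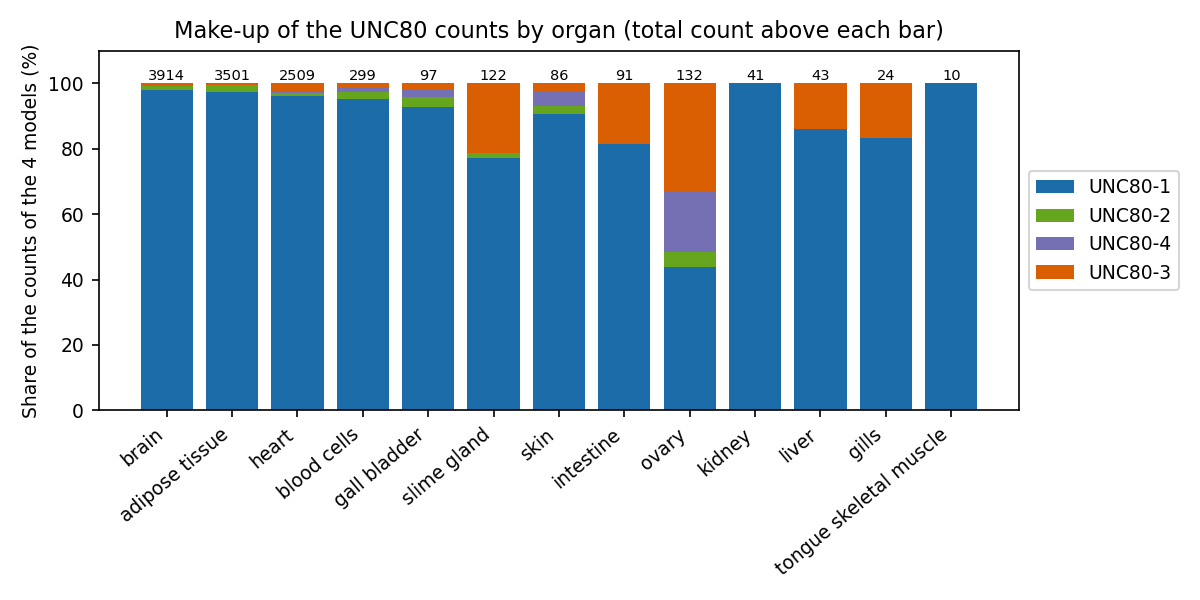
Share of each UNC80 model in the summed counts of the 4 models (percent, bars from 0 to 100) in each library, with the summed count above each bar and 1 library per organ. UNC80-1 makes up 98.0% in brain and 96.1% in heart, and 43.9% in ovary, where UNC80-3 and UNC80-4 together make up 51.5%.

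The levels per length differed widely between the models. Pieces of a single transcript would have equal levels only if reads covered it evenly, and the evenness of coverage was not tested. In brain UNC80-1 stood 42.4-fold (28.1 to 67.0) above UNC80-2 and 36.7-fold (21.0 to 71.2) above UNC80-3 in FPKM. In heart it stood 42.8-fold (25.4 to 78.5) above UNC80-2 and 8.05-fold (5.70 to 11.8) above UNC80-3. The step between UNC80-2 and UNC80-1, which are 4508 bp apart, was therefore of one size in brain and heart within counting error. In ovary the same step was 4.81-fold (1.49 to 24.7), and UNC80-1 stood at 0.291 (0.161 to 0.531) of the level of UNC80-3. UNC80-1 was the highest of the 4 per length in 10 of the 13 organs; the exceptions were intestine, slime gland and ovary, where UNC80-3 was highest, and in intestine and slime gland its excess over UNC80-1 was within counting error.

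For comparison, 112 neighbouring pairs on a strand carried a single symbol with different numbers, the 3 UNC80 pairs among them. These pairs were defined by name only, so pieces of a gene and separate genes with a shared symbol were not told apart. Symbols were available for models of chromosome 1 only, whereas the 36116 neighbouring pairs of any kind come from the whole annotation, so these sets differ in more than the symbol. The downstream model was the higher per length in 79 of 105 such pairs with counts in brain, in 80 of 102 in heart and in 76 of 107 in ovary, against 52.3% of all neighbouring pairs in brain. This count was chosen after the UNC80 levels had been seen. A step of 8-fold or more upwards, as between UNC80-2 and UNC80-1 in brain, was present in 18.1% of the pairs with a single symbol in brain and in 31.0% of all neighbouring pairs.

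The pairs with a single symbol also gave a background for unequal ratios. Between neighbours the log2 ratio of brain to heart differed by 0.12 from UNC80-2 to UNC80-1, by 0.58 from UNC80-4 to UNC80-2 (UNC80-4 the higher) and by 2.58 from UNC80-3 to UNC80-4. A difference of 2 or more was found in 29.2% of 11000 neighbouring pairs and in 8.14% of 86 pairs that carry a single symbol, which is 7 pairs with UNC80-3 and UNC80-4 among them. The median absolute difference was 1.05 over all neighbouring pairs and 0.30 over those with a single symbol, so that the pair of UNC80-2 and UNC80-1 lay below the latter and the pair of UNC80-4 and UNC80-2 above it. The difference between UNC80-3 and UNC80-4 rests on 12 and 4 counts of UNC80-4.

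**Figure D5:**
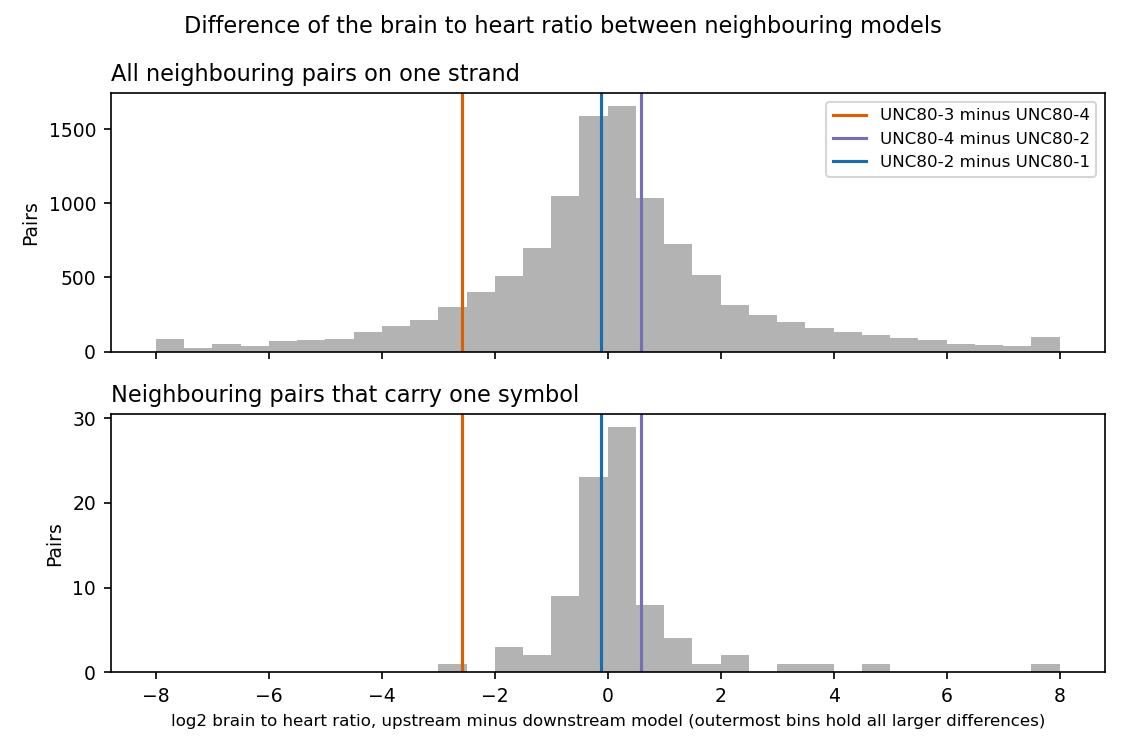
Histograms of the difference in log2 brain to heart ratio (upstream minus downstream model, in log2 units, bins of 0.5) over 11000 neighbouring pairs of gene models and over the 86 pairs that carry a single symbol, with 1 library per organ and the 3 UNC80 pairs as lines. The pair of UNC80-3 and UNC80-4, in which the downstream model is higher by 2.58, lies in the left tail of the pairs with a single symbol, and the other UNC80 pairs lie near the centre.

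Over all 13 libraries the profiles were compared on log2(FPKM + 0.1), as a description, since the libraries are shared by both profiles and most counts are low. Pearson's r was 0.96 between UNC80-1 and UNC80-2, and 0.92 over the 11 libraries other than brain and the one labelled adipose tissue. All other pairs were lower, with 0.67 between UNC80-4 and UNC80-2, 0.62 between UNC80-3 and UNC80-1, 0.60 between UNC80-3 and UNC80-2, 0.59 between UNC80-4 and UNC80-1 and 0.56 between UNC80-3 and UNC80-4. The median r was 0.92 (quartiles 0.79 and 0.96) over 91 neighbouring pairs with a single symbol and 0.61 over 12068 neighbouring pairs of any kind. Thus 1 of the 3 neighbouring UNC80 pairs lay at the level of pairs with a single symbol, and the other 2, at 0.56 and 0.67, lay near that of neighbours in general. The values with UNC80-4 depended on the settings, with 0.34 for UNC80-3 and UNC80-4 under TMM factors, 0.90 for UNC80-4 and UNC80-2 as Spearman's rho, and 0.37 for UNC80-4 and UNC80-1 without brain and the library labelled adipose tissue. The other values with UNC80-3 moved too, to 0.49 with UNC80-2 under TMM factors and 0.50 with UNC80-1 as Spearman's rho.

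A search over the 19057 models with at least 50 counts placed UNC80-2 first among those most like UNC80-1, before EA43947 and EA54015, both at 0.93. UNC80-1 came second for UNC80-2, at 0.96, after EA54015 at 0.97 and before EA04594 at 0.96. The models most like UNC80-3 were *ELAPOR2-2* at 0.92, *ELAPOR1* at 0.91 and EA57522 at 0.90. *ELAPOR2-2* was at 23.8 FPKM in heart and 3.43 FPKM in brain, and *ELAPOR1* at 5.10 FPKM and 0.967 FPKM. EA57522 had the opposite order, with 0.938 FPKM in heart and 1.33 FPKM in brain. Those most like UNC80-4 were *ADIPOR2*, an adiponectin receptor gene, at 0.91, EA66711 at 0.90 and EA09979 at 0.89. In this search UNC80-1 ranked 363rd for UNC80-3 and 3818th for UNC80-4.

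Set against the median of the other 12 organs, all 4 models were at least 2-fold higher in brain, as were 37.2% of 22343 models, and all 4 were so in the library labelled adipose tissue, as were 39.6%. The log2 values for brain were 5.90 for UNC80-1, 2.98 for UNC80-2, 2.38 for UNC80-4 and 2.02 for UNC80-3. In heart 3 of the 4 were at least 2-fold higher, as were 15.6% of all models, with log2 values of 4.93 for UNC80-1, 3.16 for UNC80-3 and 2.12 for UNC80-2. UNC80-4 was at 0.94, and it passed 2-fold too, so that all 4 models did, without the library labelled adipose tissue (1.44) and with each of the 3 other scalings. The heart value of UNC80-4 rests on 4 counts, and it was 0.17 with a pseudocount of 1 FPKM. In ovary 2 of the 4 were at least 2-fold higher, against 42% of all models, with 2.91 for UNC80-4 and 2.52 for UNC80-3, while UNC80-2 was at 0.58 and UNC80-1 at −0.41. In blood cells UNC80-1, at 1.93, was the only such model, against 15.8% of all. Being high in both brain and heart was less common, at 7.44% of all models, and UNC80-1, UNC80-2 and UNC80-3 all had it. With a pseudocount of 1 FPKM in place of 0.1 FPKM only UNC80-1 had it, at 4.68 in brain and 3.74 in heart. UNC80-2 was then at 0.90 in brain and 0.51 in heart, and UNC80-3 at 0.80 in brain. Brain, heart and the library labelled adipose tissue as the 3 highest libraries were shared by UNC80-1 and UNC80-2, and by 2.84% of the models with at least 50 counts, a count chosen after the values had been seen.

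Brain and heart differ in their content of neurons and muscle. Neurons carry the sodium leak current in mammals, and summed over 19 models of neuronal genes the level was 3015 FPKM in brain, 2887 FPKM in the library labelled adipose tissue and 590 FPKM in heart. Other organs were above heart too, with 2256 FPKM in gall bladder, 1504 FPKM in ovary and 1436 FPKM in intestine, while tongue muscle was lowest, at 138 FPKM. *TAGLN3* alone was at 1674 FPKM in gall bladder, against 407 FPKM in brain, so the sum cannot be read as the content of neurons. Of the 18 models of this list with enough counts 12 were at least 2-fold higher in brain and 1 in heart, against 42.4% and 9.75% of all models. Of the 19 models 3 were at least 2-fold above the median of the other organs in both brain and heart, as were 7.44% of all models and UNC80-1. They were *NLGN1-1*, *CNTNAP2-1* and *CNTN2-1*, genes of neuronal adhesion proteins, named after their values were seen. Their levels in heart were low, at 2.06, 1.10 and 0.189 FPKM, against 31.9, 6.76 and 20.2 FPKM in brain. *CNTNAP2-1* was higher still in gills, at 9.24 FPKM. *NEFM*, a filament protein of neurons, was at 899 FPKM in brain and 0.635 FPKM in heart, while the sum in heart came mostly from *RTN1-2* (263 FPKM) and *TAGLN3* (205 FPKM), which were also above 50 FPKM in ovary and most other organs. In heart 1 of the 19 models was at 0. The part of neurons in the level of UNC80-1 in heart was not tested, and in libraries of whole organs fewer cells of a type and less RNA per cell cannot be told apart.

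Of 9 ion channel models 6 were at least 2-fold higher in brain than in heart and 1 was higher in heart (42.4% and 9.75% of all models were), with a median log2 ratio of 3.79 against 0.76 over all models. The 6 are not separate genes by symbol, since *KCND2-1*, *KCND2-2* and *KCND2-3* are among them, at 0.937 to 3.18 FPKM in brain. The median is the value of *KCND2-2*, so the contrast with all models rests in part on a single symbol. *CACNB1-1*, a subunit of voltage-gated calcium channels, was at 52.5 FPKM in brain and 1.88 FPKM in heart. *KCNK2*, a potassium leak channel, was at 14.8 FPKM in brain and listed at 0 in heart. *KCNJ11-1*, the pore of a potassium channel closed by ATP, had the opposite order, with 7.30 FPKM in brain and 55.6 FPKM in heart. None of the 9 was at least 2-fold above the median of the other organs in both brain and heart, as 7.44% of all models were, a share from which 0 of 9 cannot be told. Symbols were read from source data for chromosome 1, in which no symbol matched NALCN, UNC79, NALF1 or NALF2, so these partners were not analysed here.

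Of 6 measured models of sodium and calcium transport 4 were at least 2-fold higher in brain and 0 in heart (42.4% and 9.75% of all models were), with a median log2 ratio of 1.52 against 0.76 over all models. *ITPR1-2*, a calcium release channel of the endoplasmic reticulum, was at 13.5 FPKM in brain and 7.24 FPKM in heart, and *ATP2B1-1*, a calcium pump of the plasma membrane, at 3.53 FPKM and 0.909 FPKM. The log2 ratio of *ITPR1-2* was 0.89, close to the 0.98 of UNC80-1.

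The models on both sides of the locus had higher brain to heart ratios than UNC80-1, UNC80-2 and UNC80-3, while the wide interval of UNC80-4 (0.665 to 37.7) includes both. Upstream by 19500 bp on the same strand lies EA23574, a model without a gene name that holds a UCH domain, with 14.3 FPKM in brain and 1.38 FPKM in heart, a ratio of 10.4 (7.14 to 15.6). Downstream by 50768 bp begins *BRSK2* (EA21745), a kinase of neurons, with 27.9 FPKM in brain and 1.46 FPKM in heart, a ratio of 19.1 (14.6 to 25.3). The profile of *BRSK2* over the 13 libraries had a Pearson's r of 0.67 with UNC80-1, above the 0.62 of UNC80-3 and the 0.59 of UNC80-4 with UNC80-1. A second model, *BRSK1-1* (EA23440), overlaps *BRSK2* on the same strand and had 2 counts in each of brain and heart, and since reads in shared exons are not assigned, the level of *BRSK2* is uncertain.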

How the data were processed

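The deposited table holds raw counts per gene model, made by the authors by aligning reads with STAR (2.5.2b) and counting them over exons with featureCounts (1.6.1 in the file header, a later version in the paper's methods). No option for read pairs, strand or reads with several matches was set, so both ends of a fragment were counted, and reads that match several places or models were left out. Antisense or near-identical sequence could not be checked without a genome.

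FPKM was computed from counts, exon length and assigned totals. The floor was 3 counts. Exact 95% intervals (Poisson for levels, Clopper-Pearson for shares and ratios, conditional odds ratio for ratios of ratios) were taken on counts divided by 2 and rounded up, since 83.6% of counts from 1 to 4 were even. They cover counting error only. Pseudocounts were 0.1 FPKM for log2 ratios and correlations, and 1 FPKM for tau. Models needed 10 counts over the libraries compared, or 50 for correlations.

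Symbols came from 1966 of 1998 source rows that matched by position. Members, lists, rules and alternatives were chosen with earlier results of these data known. The text names the 4 members, their neighbours, the 3 models most like each, and the 3 models of each list highest in brain. Others are named as markers, or where several models of a list carry a single symbol. A gene of the transport list that the rule would name is not reported here. No test was made, since each organ has 1 library. Alternatives were TMM (edgeR 4.0.16), DESeq2 size factors (1.42.0, R 4.3.3), totals without the 10 highest genes, other pseudocounts and filters, single counts in place of pairs, and the library labelled adipose tissue in place of brain. Intervals came from scipy 1.17.1 in Python 3.11.15 (with pandas 2.3.3 and numpy 2.4.6), and the functions were tested on simulated data.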

Additional observations from a re-analysis of the deposited data

How the results depend on the processing

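The ratios of ratios and the shares do not depend on the scaling of the libraries. The brain to heart ratio of UNC80-1 was 1.97, and it was 1.24 with TMM factors or DESeq2 size factors, 1.67 with totals without the 10 highest genes and 1.64 with the library labelled adipose tissue in place of brain. With single counts in place of pairs the intervals of the brain to heart ratio left out 1 for UNC80-2 (1.22 to 3.32) and UNC80-4 (1.13 to 15.8). Models at least 2-fold higher in brain numbered 7664, but 4913 with TMM, 4932 with DESeq2 size factors and 4008 at 4-fold, and those higher in heart numbered 1764, but 3130, 3114 and 877, and 2756 without a filter. Neighbouring pairs with unequal ratios numbered 3214, and 5664 at a difference of 1 log2 unit. With a pseudocount of 0.1 FPKM 1 model, UNC80-2, reached a tau of 0.8 in place of 3. With a pseudocount of 1 FPKM 1 model was 2-fold above the median in brain in place of 4. With ovary in place of heart, chosen after seeing the data, UNC80-1 differed by a factor of 126 from UNC80-3, 132 from UNC80-4 and 8.81 from UNC80-2. The other 56 of 73 values for the main results moved by less than counting error, or by less than the limit set for counts and correlations. The 56 include the values with single counts in place of pairs, which could not move because only their intervals change. A ratio with a wide interval, such as that of UNC80-4 (0.665 to 37.7), could hardly leave it. The tally is therefore no measure of robustness. No brain to heart ratio whose interval left out 1 changed direction, and no ratio of 2 such ratios did. The step of UNC80-1 from gills to tongue muscle did reverse, at 0.135 FPKM and 0.168 FPKM with TMM factors. The factor of UNC80-1 over UNC80-4, whose interval included 1, went from 0.530 to 1.13 with the library labelled adipose tissue in place of brain. The cause of the changes was not tested. No paired analysis was possible because each organ has 1 library, and for the same reason no library could be left out as a replicate. UNC80-2, UNC80-3 and UNC80-4 had 159, 210 and 55 counts over all libraries, which limits every comparison with them.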
